A study of Homo sapiens with 8 samples.

Results

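The small subunit of the cytosolic ribosome carries 1 copy each of a fixed set of proteins, and the genes for these proteins are described here through heat shock and recovery. They were taken by symbol: RPS followed by a number, with or without a closing A, X or L, together with RPSA and FAU. Of 55075 genes in the tables, 36 matched. RPS10L and RPS4L are annotated as processed pseudogenes and were left out, so 34 genes remained. Of these, 1 had no read in any library, and the other 33 all passed the filter on low counts. RNA was sequenced from HCT116 cells, an established human colon cancer line, either wild-type (WT) or with a knockout (KO) of FBXW7, the subunit of an SCF ubiquitin ligase that recognises its substrates. Cells were heated to 42 °C for 1 h and taken at once (heat shock), or were given a further 2 h at 37 °C (recovery). Each line was thus sampled at both stages, which makes 4 groups of 2 libraries. Heat is shared by all 4 groups, and unheated cells were not analysed here. Whether the KO line is 1 clone was not given in the sources used here, nor whether the replicates, called biological, were separate cultures. The p-values therefore speak only of these libraries. Their spread was estimated with information from all genes, not from each gene's own values alone.

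The small subunit binds the messenger RNA and holds the site where codons are read. It has a head, and a body with a platform, and the messenger RNA passes between them. Most ribosomal protein messenger RNAs are short, abundant and long-lived, and begin with a tract of C and U called the terminal oligopyrimidine (TOP) motif, through which their translation is controlled by mTOR signalling. Ribosome production is among the first things that stressed cells turn down, and free ribosomal proteins bind MDM2, which links ribosome assembly to p53.

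The start of the gene is shown for 9 members, the 6 with the largest rise in KO recovery, and RPS7, RPS27L and RPSA, which stood at the other end. Windows of 30 bases, 10 before the RefSeq start and 20 from it, are printed 5′ to 3′ on the gene's strand from the RefSeq promoter table (GRCh38.p14). Capitals mark an unbroken run of at least 5 letters C or T that reaches into the first 5 transcribed bases.
RPS27, chr1:153990752-153990781, plus strand: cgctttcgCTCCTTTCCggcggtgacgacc
RPS28, chr19:8321486-8321515, plus strand: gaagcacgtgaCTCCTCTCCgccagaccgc
RPS3A, chr4:151099618-151099647, plus strand: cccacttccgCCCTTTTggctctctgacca
RPS10, chr6:34426050-34426079, minus strand: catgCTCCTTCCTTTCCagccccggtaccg
RPS29, chr14:49598691-49598720, minus strand: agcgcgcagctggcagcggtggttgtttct
RPS21, chr20:62387093-62387122, plus strand: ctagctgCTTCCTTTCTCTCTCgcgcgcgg
RPS7, chr2:3575250-3575279, plus strand: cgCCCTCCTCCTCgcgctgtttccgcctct
RPS27L, chr15:63157458-63157487, minus strand: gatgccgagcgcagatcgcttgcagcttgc
RPSA, chr3:39406710-39406739, plus strand: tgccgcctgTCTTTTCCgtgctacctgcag
Such a run was found in 23 of the 26 members with a window (88.5%), against 2792 of 9897 tested genes with a window (28.2%) and 7004 of all 27305 genes in the table (25.7%). RPS29, RPS15 and RPS27L had none at the RefSeq start. RPS2, RPS15A and RPS20 were among the members without a window. A run of these letters is a description of the sequence and not a measured TOP motif: RPS29 lacked one and RPSA had one.

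Libraries held 15507896 to 34387618 counts. Of 14 epithelial and colon markers, EPCAM, KRT8, KRT18 and KRT19 were read at 247 CPM (read counts scaled to a common library total) or more in every library. The colon markers of the list were split. VIL1 was at 11.5 to 22.6 CPM and CDX2 at 7.76 to 13.4 CPM, while CDH17, GPA33 and LGALS4 were at or near 0, at most 0.228 CPM. Of 10 immune and blood markers, CD68 was the only one above 1 CPM in any library, CD3E was at 0 in all 8, and the list summed to 16.9 to 30.7 CPM. Of 10 fibroblast and mesenchymal markers, ACTA2 was at 5.35 to 9.13 CPM, COL1A1 at 6.25 to 9.82 and ZEB1 at 3.7 to 10. The rest were at most 0.425 CPM, with LUM at 0 in all 8 libraries, and the list summed to 18.6 to 24.2 CPM. FBXW7 itself stood at 33.5 and 31.4 CPM in WT heat shock and 17.4 and 14.9 in KO heat shock, and at 23 and 21.7 in WT recovery and 14 and 13.8 in KO recovery, so KO libraries kept part of its reads. The KO heat shock libraries stood apart in a list of abundant RNAs without a poly-A tail. Its 15 rows summed to 44.2 and 37.7 CPM in them and to 6.86 to 18.4 CPM in the other 6. Of the 7 rows tested, 4 were higher and 1 lower in KO than WT at heat shock, against 27.4% and 28.2% of all genes. The 4 were RMRP (log2 difference 1.49 ± 0.22), RN7SK (1.17 ± 0.21) and RPPH1 in separate rows (2.68 ± 0.29 and 2.50 ± 0.29). RPPH1 thus enters the count and the sums more than once. The sum of replication-dependent histones did not set KO heat shock apart. It was 45.5 and 40.7 CPM there, 43.2 and 41 in KO recovery and 32.8 to 38.3 in WT. The labels name either poly-A RNA or RNA freed of ribosomal RNA for the series as a whole, not per library. What part the RNA make-up has in the results was not tested.

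Small-subunit genes took about the same share of reads in 3 groups and a smaller one in KO heat shock. Their share of all counts was 2.03% and 2.08% in WT heat shock, 2.09% and 2.04% in WT recovery, and 2.05% and 1.93% in KO recovery. In KO heat shock it was 1.09% and 1.07%, below every other library. The large-subunit genes moved the same way, from 3.9% to 4.24% in the other 6 libraries to 2.21% and 2.16% in KO heat shock. In bulk samples fewer cells of a type and less RNA per cell cannot be told apart. Both KO heat shock libraries lay below all 6 others, in scaled CPM, for 28 of the 33 genes, and this was so for 14.8% of all 17471 genes tested. RPS15, FAU, RPS7, RPSA and RPS27L were the 5 exceptions.

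**Figure D1:**
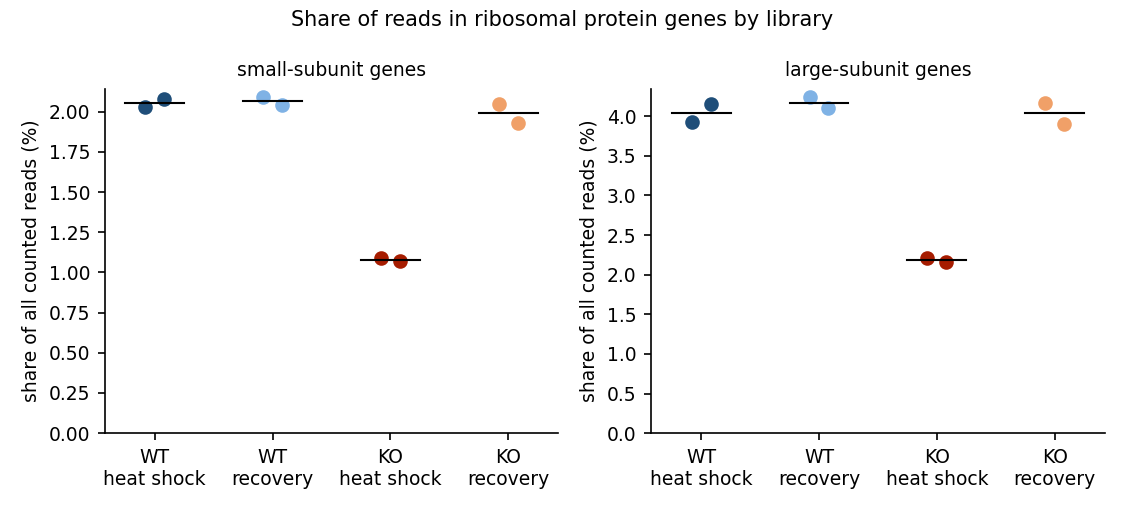
Share of all counted reads (%, axis from 0) in small-subunit genes (left) and large-subunit genes (right), 1 point per library, with the mean of each group as a line. The 2 KO heat shock libraries sit at 1.09% and 1.07% on the left and at 2.21% and 2.16% on the right, below the other 6.

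Read levels per coding length differed widely between genes, although, paralogues such as RPS27L aside, the subunit holds their proteins in equal number. How far these levels follow the number of messages was not tested. Per 1000 bases of coding sequence, the 32 genes with reads and a coding length had a median of 1120 and 1180 CPM in WT heat shock, 1170 and 1080 in WT recovery, 497 and 523 in KO heat shock, and 1350 and 1240 in KO recovery. RPS29, a small zinc-binding protein of the head, was at 4550 CPM per coding kb as the mean of WT heat shock, RPS18 at 3660 and RPS6, the substrate of the S6 kinases, at 3240. At the low end were RPS26 at 47.8, RPS7 at 87.4, RPSA at 101, RPS27L at 138 and RPS27 at 174 CPM per coding kb. Some of these low levels go with reads counted to pseudogenes, as given further on. The spread between genes was widest in KO heat shock, with an SD of log2 CPM per coding kb of 1.95 and 1.98 against 1.66 to 1.78 elsewhere. Members were thus lower by unequal amounts there, as the plot of levels by gene shows.

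**Figure D2:**
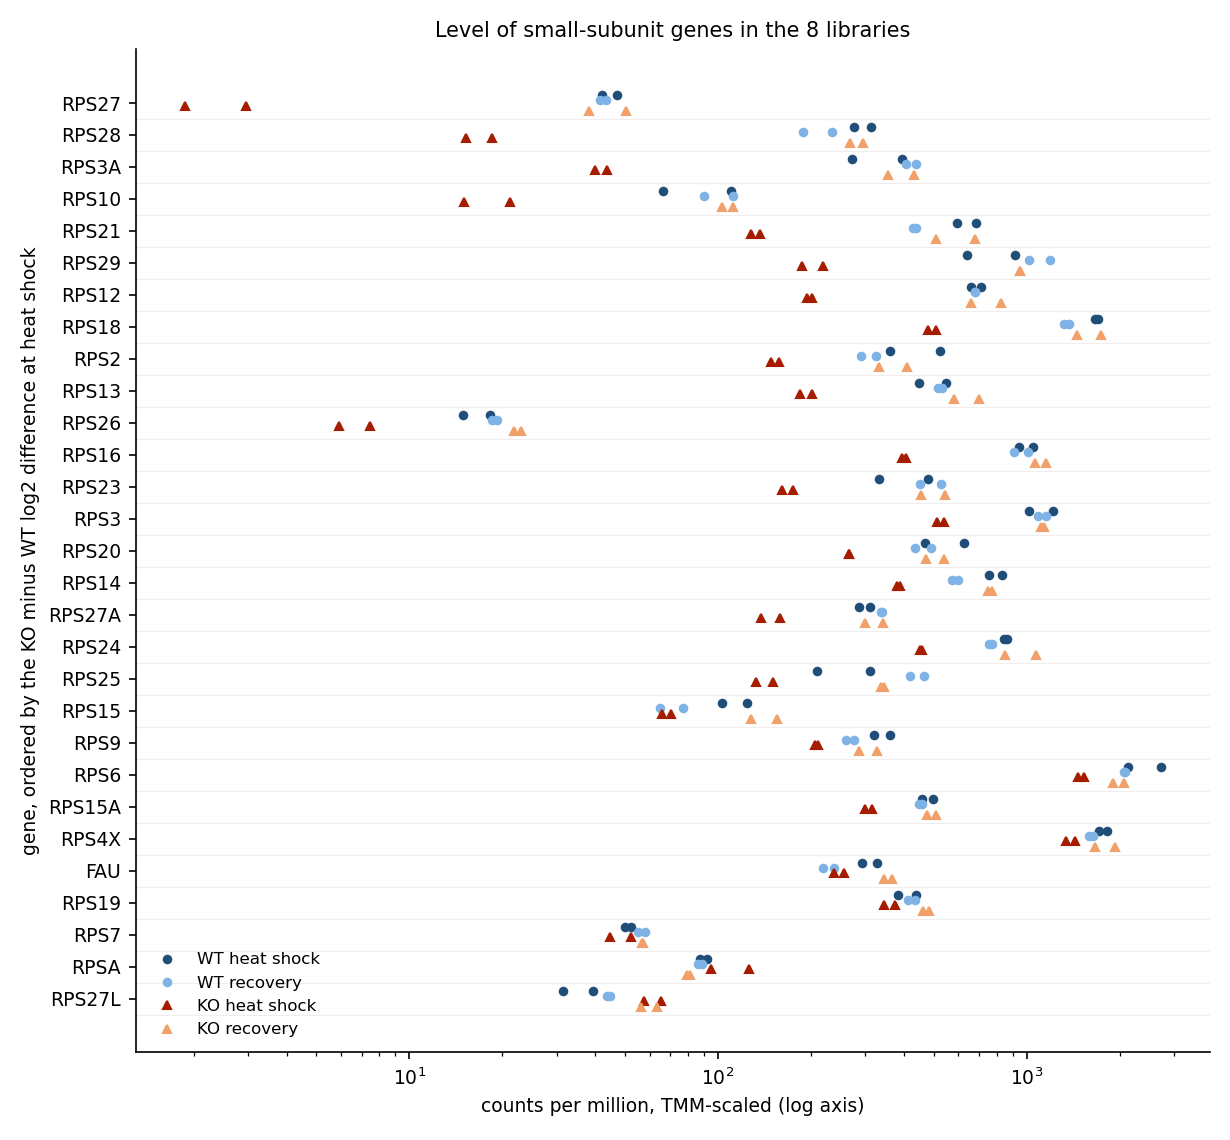
Level of 29 of the tested genes (TMM-scaled CPM, log axis) in all 8 libraries, circles for WT and triangles for KO, ordered by the KO minus WT difference at heat shock. RPS27 and RPS28 lie lowest in KO heat shock relative to the other groups, at 2.96 and 1.87 CPM and at 15.3 and 18.5 CPM, while RPS27L is higher in KO than in WT heat shock.

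KO was first set against WT at heat shock, to ask how the lines differed at the end of heating. Of 33 members, 29 were lower in KO, against 28.2% of all genes tested, and 2 were higher, against 27.4%. The median log2 difference was -1.10, where that of all genes was -0.03. RPS27, a zinc-finger protein at the platform side, was read at 46.9 and 42 CPM in WT and at 2.96 and 1.87 CPM in KO (79 and 66 reads), a log2 difference of -4.23 ± 0.18 (SE, n = 2 libraries per group, adjusted p = 5.33e-10). The KO values lay far below the WT values. RPS28, a small protein beside the channel through which messenger RNA leaves, was at 276 and 314 CPM in WT and 15.3 and 18.5 CPM in KO, a log2 difference of -4.12 ± 0.13 (adjusted p = 3.14e-11). RPS3A, a platform protein, was at 272 and 394 CPM in WT and 43.7 and 40 CPM in KO, a difference of -2.99 ± 0.15 (adjusted p = 3e-09). RPS10, a head protein that is ubiquitinated when ribosomes collide, was at 66.2 and 110 CPM in WT and 15 and 21.2 CPM in KO, a difference of -2.28 ± 0.20. RPS21 followed with -2.27 ± 0.12 and RPS29 with -1.94 ± 0.14. In each of these 6 genes the groups did not overlap, which was also so for 13300 of all 17471 genes tested and marks nothing about these members.

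Other members were lower by less. RPS12 and RPS18 of the head differed by -1.79 ± 0.10 and -1.77 ± 0.09. RPS2, RPS13, RPS26, RPS16, RPS23, RPS3, RPS14, RPS20 and RPS27A, a fusion of ubiquitin with a ribosomal protein, lay between -1.53 and -1.01. RPS24, RPS25, RPS15, RPS9, RPS6 and RPS15A lay between -0.91 and -0.63. Of these, RPS15 dropped to -0.06 and -0.19 when libraries were corrected for GC content with transcript or coding length (adjusted p = 0.58 and 0.0557), and RPS9 to -0.14 with transcript length (adjusted p = 0.15). The smallest differences that passed were those of RPS4X, whose gene is on the X chromosome, at -0.35 ± 0.09, and of FAU, which encodes a ubiquitin-like protein fused to a ribosomal protein, at -0.33 ± 0.09. Without the second KO heat shock library neither passed (adjusted p = 0.0546 and 0.075). FAU turned to 0.26 when each library was corrected for transcript length and GC content (adjusted p = 0.00485). RPS19, the gene most often mutated in Diamond-Blackfan anaemia, was at 382 and 439 CPM in WT and 345 and 373 CPM in KO, and its difference of -0.19 ± 0.09 did not pass (adjusted p = 0.0798). RPS7, at 49.9 and 52.4 CPM in WT and 52.1 and 44.6 CPM in KO, did not pass either (-0.08 ± 0.09). By position in the subunit, 13 of 14 head genes were lower (median -1.27), and 16 of 19 body and platform genes (median -0.91).

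RPS27L and RPSA were higher in KO. RPS27L, a paralogue of RPS27 that p53 is known to induce, was at 31.4 and 39.2 CPM in WT heat shock and 65.5 and 57.7 CPM in KO heat shock, a log2 difference of 0.80 ± 0.11 (adjusted p = 2.68e-05). The paralogues thus differed in opposite directions, RPS27 lower and RPS27L higher. RPSA, a protein of the back of the subunit also known as a laminin receptor, was at 87.2 and 92.2 CPM in WT and 94.8 and 126 CPM in KO (0.30 ± 0.11, adjusted p = 0.0286). That call was lost without the first WT library (adjusted p = 0.13), without the second KO library (adjusted p = 0.582) and with upper-quartile scaling (adjusted p = 0.0704). It also turned to -0.88 ± 0.15 when reads of RPSA pseudogenes were counted in (adjusted p = 0.000196).

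In KO cells nearly all members rose from heat shock to recovery. Of 33, 31 were higher, against 20.6% of all genes tested, and 1, RPSA, was lower, against 21.1%. The median log2 change was 1.11, and -0.02 over all genes. This comparison shares the KO heat shock libraries with the one above, so the order of the genes in both rests on the same low values. RPS27 went from 2.96 and 1.87 CPM to 50.4 and 38.1 CPM, a rise of 4.21 ± 0.13 on the log2 scale or 18.5-fold (adjusted p = 4e-14). RPS28 went from 15.3 and 18.5 to 294 and 267 CPM, or 16.6-fold (4.05 ± 0.14, adjusted p = 1.24e-13). For comparison, RPS27 stood at 41.3 to 46.9 CPM and RPS28 at 189 to 314 CPM in the 4 WT libraries, so the KO recovery values of RPS28 lay inside the WT range and those of RPS27 on either side of it. RPS3A rose from 43.7 and 40 to 431 and 355 CPM (9.35-fold), and RPS10 from 15 and 21.2 to 112 and 103 CPM (5.97-fold). RPS29 went from 219 and 187 to 952 and 949 CPM (2.23 ± 0.14). RPS21, a protein of the body, went from 128 and 137 to 679 and 509 CPM (2.15 ± 0.12). Replicate pairs moved the same way in all 6.

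A middle group ran from RPS12 at 1.90 ± 0.11 to RPS14 at 0.98 ± 0.10. Between them lay RPS26, RPS13, RPS18, RPS23 of the decoding site, RPS16, RPS25, RPS2, RPS27A, RPS3 of the messenger RNA entry channel, RPS24 and RPS15. RPS20, RPS15A, RPS9 and FAU rose by 0.93 to 0.53, and RPS9 lost its call without the first heat shock library (adjusted p = 0.0729). The smallest rises were those of RPS6 (0.40 ± 0.11), RPS19 (0.39 ± 0.10), RPS4X (0.37 ± 0.10) and RPS7 (0.24 ± 0.09). Those of RPS6, RPS4X and RPS7 no longer passed when any 1 KO library was left out, with adjusted p from 0.0556 to 0.578, and RPS19 lost its call without the first library of either KO group (adjusted p = 0.241 and 0.181). FAU, RPS7 and RPS9 changed sign with the transcript length and GC correction, to -0.08, -0.17 and -0.04, and did not pass there, nor did RPS19 (0.16, adjusted p = 0.171). RPS27L did not pass, at 65.5 and 57.7 CPM before and 63.5 and 56.1 CPM after. It became 0.21 with the transcript length correction and -0.26 with one for coding length (adjusted p = 0.0368 and 0.0092). All 14 head genes rose (median 1.37), as did 17 of 19 body and platform genes (median 0.98). RPSA, at 94.8 and 126 CPM in heat shock, was at 80.8 and 79.1 CPM in recovery (-0.46 ± 0.10, adjusted p = 0.00166). Without the second library of either KO group its fall was -0.23 and did not pass (adjusted p = 0.291 and 0.303).

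**Figure D3:**
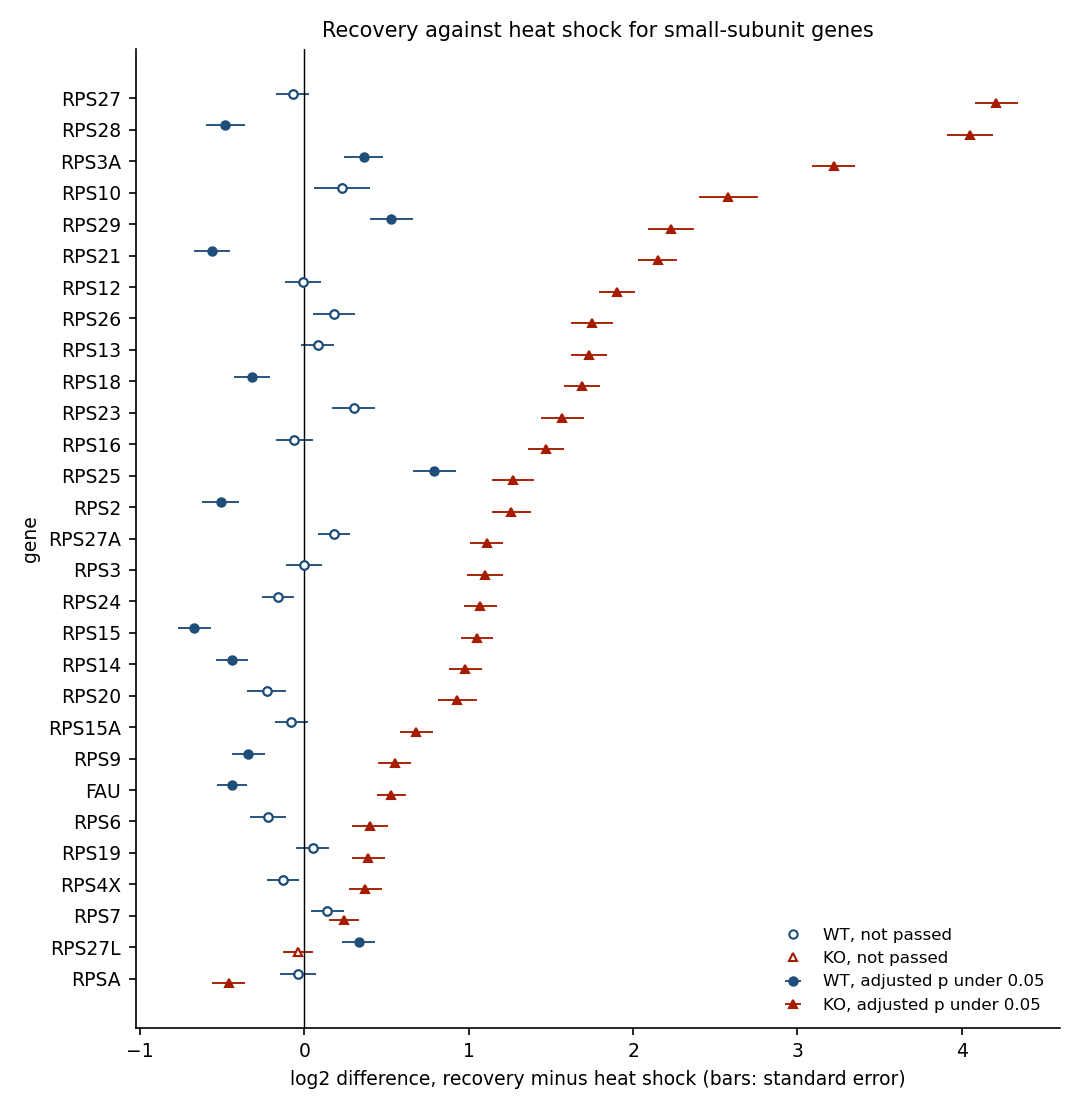
Log2 difference of recovery minus heat shock for 29 genes with their standard errors, circles for WT and triangles for KO, filled where the adjusted p was under 0.05. KO values run from -0.46 (RPSA) to 4.21 (RPS27), and WT values from -0.67 (RPS15) to 0.79 (RPS25).

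In WT cells the changes were small and went both ways. Of 33 members, 5 rose, against 24.8% of all genes tested, 9 fell, against 26.0%, and 19 did not pass. The median was -0.07, near the 0.01 of all genes, and its sign changed with the scaling. RPS15, a head protein near the decoding site, fell from 124 and 103 to 77.1 and 64.9 CPM (-0.67 ± 0.10, adjusted p = 2.6e-05). RPS21 fell from 684 and 593 to 437 and 427 CPM (-0.56 ± 0.11). In both genes every recovery library lay below every heat shock library, and groups did not overlap for 13170 of all 17471 genes in this comparison. RPS2 (-0.51 ± 0.11), RPS28 (-0.48 ± 0.12), RPS14 (-0.44 ± 0.10), FAU (-0.44 ± 0.09), RPS9 (-0.34 ± 0.10) and RPS18 (-0.32 ± 0.11) also fell. Without the second library of either WT group RPS28 did not pass (adjusted p = 0.111 and 0.123), nor did RPS9 (adjusted p = 0.157 and 0.173), and RPS18 was lost without the first recovery library (adjusted p = 0.0511). With the corrections for transcript length and for coding length, 5 of these 6 did not pass: RPS2 became -0.14 in both, FAU -0.07 and -0.05, RPS28 -0.21 and -0.12, RPS18 -0.12 and -0.06, and RPS9 turned to 0.02 in both.

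The 5 rises in WT were all larger in the first replicate pair than in the second. RPS25, which some viral and cellular internal initiation sites need, went from 209 and 310 CPM to 464 and 418 CPM (0.79 ± 0.13, adjusted p = 6.1e-05), by 1.15 in the first pair and 0.43 in the second. RPS29 rose from 638 and 918 to 1190 and 1020 CPM (0.53 ± 0.13), RPS3A by 0.36 ± 0.12 and RPS27L from 31.4 and 39.2 to 43.7 and 44.8 CPM (0.33 ± 0.10). Without the first heat shock library or without the first recovery library, only 1 member rose. Without the second library of either group, 7 did. In DESeq2 neither RPS29 (adjusted p = 0.102) nor RPS3A (adjusted p = 0.229) passed. RPS10 changed by 0.76 in the first pair and -0.29 in the second, and RPS23 by 0.67 and -0.08, and neither passed over both pairs. The 2 WT heat shock libraries differed more than other replicates, by a chi-square statistic of 19 per degree of freedom against 2.43 to 8.23. Of the 14 head genes 3 rose and 4 fell, and of the 19 body and platform genes 2 rose and 5 fell.

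The difference of the recovery responses, KO minus WT, was then tested as the interaction in 1 model. Of 33 members, 29 had the higher response in KO, against 28.5% of all genes tested, and 2 the lower, against 27.8%. This test includes the same low KO heat shock libraries as the comparisons above, so its counts are not independent of theirs. RPS28 had the largest difference, 4.53 ± 0.18 on the log2 scale (adjusted p = 1.41e-12), since it fell in WT and rose in KO. RPS27 followed with 4.28 ± 0.17, RPS3A with 2.86 ± 0.18, RPS21 with 2.71 ± 0.16, RPS10 with 2.35 ± 0.24 and RPS18 with 2.01 ± 0.15. RPS2 and RPS15, which fell in WT, differed by 1.77 ± 0.16 and 1.72 ± 0.14. RPS25, which rose in both lines, had a difference of 0.47 ± 0.18 (adjusted p = 0.0339), and it turned to -0.15 with the length and GC correction. Its call was lost without the second library of either WT group (adjusted p = 0.518 and 0.54) or the first of either KO group (adjusted p = 0.225 and 0.117), and in DESeq2 (adjusted p = 0.339). RPS19 (0.35 ± 0.15, adjusted p = 0.0508) and RPS7 (0.10 ± 0.14) did not pass. RPSA (-0.42 ± 0.15) and RPS27L (-0.38 ± 0.14) had the lower response in KO. Those 2 calls were lost without the first library of either WT group or the second of either KO group. RPS27L lost its call without the first of either KO group too, and neither passed in DESeq2.

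At recovery fewer members differed between the lines. KO was higher for 10 of 33 members, against 31.8% of all genes tested, lower for 1, against 31.3%, and 22 did not pass. RPS15 was at 77.1 and 64.9 CPM in WT recovery and 155 and 128 CPM in KO recovery, a log2 difference of 0.99 ± 0.12 (adjusted p = 4e-06). FAU was at 237 and 219 CPM in WT and 366 and 344 CPM in KO (0.64 ± 0.09, adjusted p = 2.2e-05). RPS15 and FAU had fallen in WT recovery, which shares its libraries with this comparison. RPS21 (0.46 ± 0.12), RPS27L (0.43 ± 0.11), RPS28 (0.41 ± 0.11), RPS14 (0.37 ± 0.08), RPS24 (0.33 ± 0.10), RPS13 (0.29 ± 0.11) and RPS18 (0.25 ± 0.09) were higher too. RPS25 was lower in KO, at 344 and 337 CPM against 464 and 418 CPM in WT (-0.37 ± 0.14, adjusted p = 0.0281). Its call was lost without the first WT library or either KO library. RPS15, FAU and RPS14 passed in each fit that left out 1 library, while RPS13, RPS18, RPS21, RPS24, RPS27L and RPS28 each lost their call in at least 1. RPS14 in turn was lost with library totals (0.19, adjusted p = 0.0515) and with the coding length correction (0.10, adjusted p = 0.247), where RPS21 was at 0.06 (adjusted p = 0.572) and RPS18 turned to -0.11. RPS27, which was furthest below WT in KO heat shock, was at 43.2 and 41.3 CPM in WT and 50.4 and 38.1 CPM in KO (0.07 ± 0.14, adjusted p = 0.699). The count of members higher in KO was 4 without the first KO library, 15 without the second, and 6 without the second WT library. The median of 0.13 turned to -0.06 with unscaled library totals, which lowered the median of all genes to -0.20.

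Counting between a gene and its pseudogenes was uneven. Processed pseudogenes are reverse-transcribed copies of messenger RNAs, and 50-base reads can match gene and copy alike. Of 192 pseudogene rows named after members, RPSAP58 with 50088 reads and RPS26P3 with 40108 held most reads. Rows named after RPSA held 48.6% to 83.9% of the reads of gene and copies in the 8 libraries, and those named after RPS26 held 88.9% to 96%. For RPS7 the share was 14.7% to 47.2%. RPSA with its copies stood at 392 and 573 CPM in WT heat shock, 397 and 324 in WT recovery, 277 and 246 in KO heat shock, and 476 and 396 in KO recovery. On this sum RPSA rose in KO recovery by 0.73 ± 0.14 (adjusted p = 0.00031), against the fall of the gene's own row, so its direction is uncertain. RPS26 kept its rise in KO recovery (1.51 ± 0.21 on the sum) and gained a fall in WT recovery (-0.60 ± 0.21, adjusted p = 0.0229). RPS7 with its copies rose in WT by 0.57 ± 0.12 and was lower in KO recovery than in WT recovery (-0.44 ± 0.13, adjusted p = 0.00711).

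**Figure D4:**
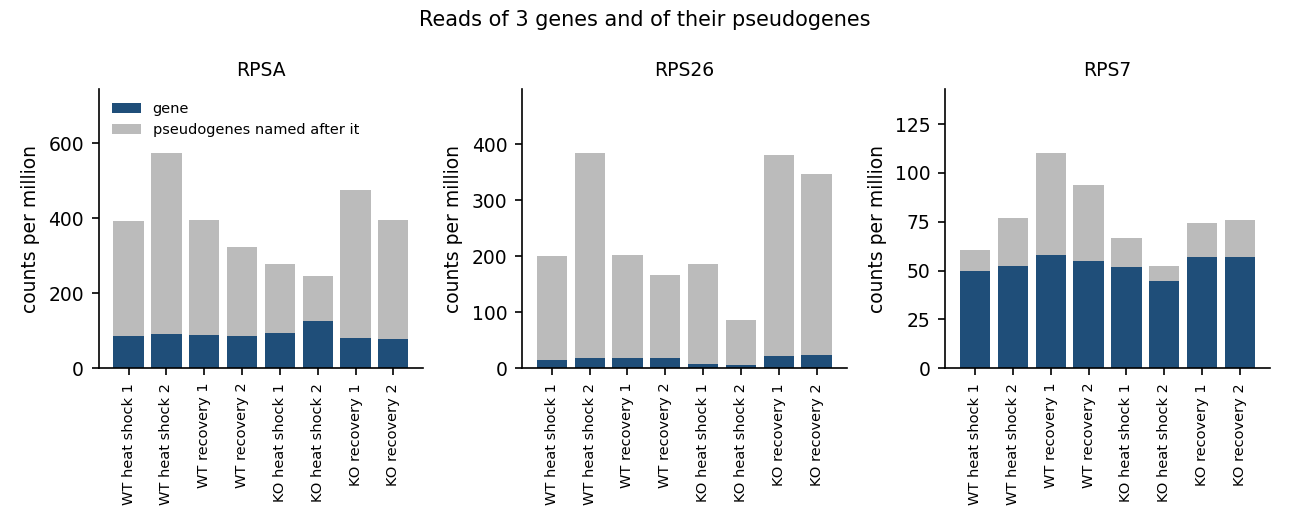
CPM (axes from 0) of RPSA, RPS26 and RPS7 in the 8 libraries, with the gene in blue and all pseudogene rows named after it stacked in grey. For RPS26 the pseudogenes hold 88.9% to 96% of the sum in every library, and for RPSA 48.6% to 83.9%.

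The WT recovery libraries held more reads of several copies than any other. RPS15A copies went from 25 and 40 reads in WT heat shock to 419 and 299 in WT recovery, with 12 to 54 in the KO libraries. RPS23 copies went from 22 and 17 to 372 and 359 reads, with 12 to 23 in KO. FAU copies went from 5 and 5 to 92 and 86 reads, with 3 to 11 in KO. RPS3 copies went from 11 and 14 to 183 and 184 reads, with 6 to 26 in KO. All 4 sets thus stood apart in both WT recovery libraries. RPS15A itself was at 495 and 458 CPM in WT heat shock and 457 and 446 in WT recovery. Copies were at most 5.27% of the sum for RPS15A and 4.5% for RPS23. For RPS19 they went from 2.72% and 4.21% in WT heat shock to 19% and 16.3% in WT recovery.

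Coding length is set beside the changes in KO heat shock and KO recovery. Members have coding regions of 171 (RPS29) to 888 bases (RPSA). The 16 shorter ones had a median KO minus WT difference at heat shock of -1.15 and the 16 longer ones of -1.07, and in KO recovery they rose by 1.37 and 1.05. Across these 32 genes, which share the same libraries, Spearman's rho of coding length was 0.24 with the former and -0.36 with the latter. Among other coding genes, 305 with coding regions up to 300 bases had medians of -0.26 and 0.30, against -2.27 and 2.23 for the 5 members of that size. Another 1803 genes of 600 to 900 coding bases had medians of -0.03 and 0.03, against -1.11 and 1.05 for 8 members. The members' median was further from 0 than that of other genes in each of the 4 length classes they fill. The 691 other coding genes with annotated transcripts of 400 to 1000 bases had medians of -0.45 and 0.44. With each library corrected for transcript length and GC content, the members' median was -0.98 at heat shock and 0.85 in KO recovery.

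**Figure D5:**
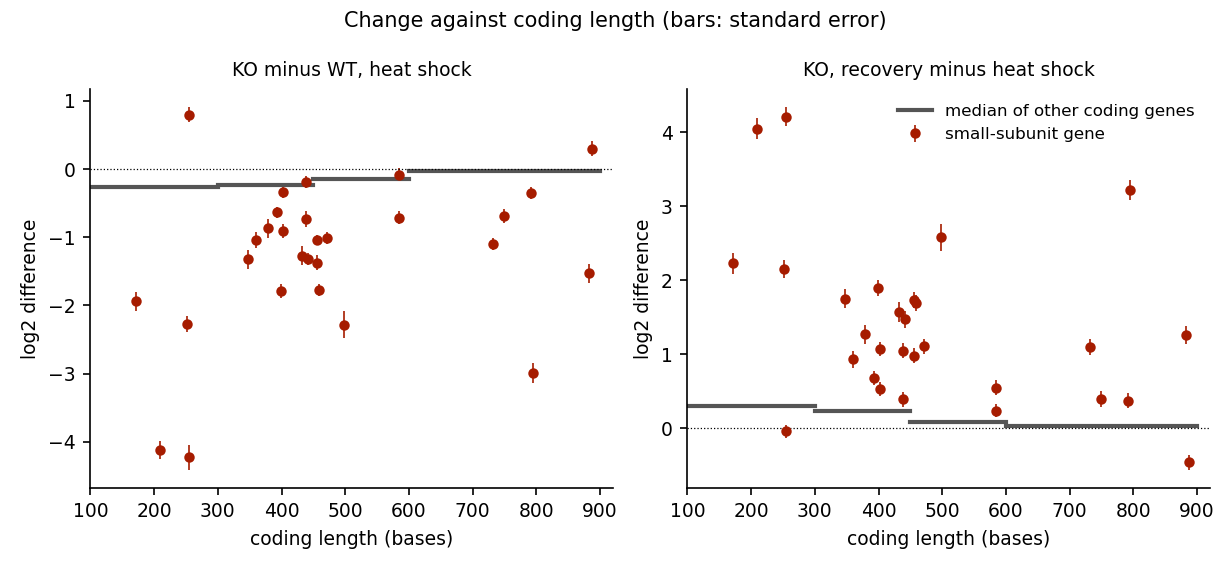
Log2 difference of 29 genes with their standard errors against coding length in bases, for KO minus WT at heat shock (left) and KO recovery minus heat shock (right), and the median of other coding genes in 4 length classes as grey bars. Members lie mostly below the grey bars on the left and above them on the right. RPS27L and RPSA lie on the opposite side in both panels, and RPS7 and RPS19 lie just above the bars on the left.

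Related lists are given beside the members. Their counts are to be read against all genes tested, of which 27.4% were higher and 28.2% lower in KO heat shock, 24.8% rose and 26.0% fell in WT recovery, and 20.6% rose and 21.1% fell in KO recovery. Of 51 large-subunit genes tested, 40 were lower and 3 higher in KO heat shock than in WT (median -0.91), and 44 rose and 1 fell in KO recovery (median 0.81). Of 77 mitochondrial ribosomal protein genes, whose proteins form the separate ribosome of mitochondria, 27 were lower and 30 higher in KO heat shock (median -0.02), and 39 rose and 12 fell in KO recovery (median 0.25). Of 22 other genes with TOP messages, 15 were lower and 2 higher in KO heat shock (median -0.40), among them EEF1B2, a subunit of the elongation factor exchange complex (-1.28 ± 0.12) and HNRNPA1 (-1.16 ± 0.14). In KO recovery 12 of these 22 rose and 2 fell (median 0.28). EEF1B2 rose by 1.40 ± 0.11 and HNRNPA1 by 1.47 ± 0.13. The recovery response was higher in KO for 9 of these 22 and lower for 4 (median 0.28), against 28.5% and 27.8% of all genes. EEF1A1 was among those with the lower response in KO (-0.93 ± 0.18), rising by 1.51 ± 0.13 in WT and 0.58 ± 0.13 in KO. Whether small-subunit genes differ from these lists was not tested.

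Factors that build or load the small subunit went both ways in KO recovery. Of 48 assembly factors, 35 fell and 5 rose in WT recovery (median -0.45), among them NOP56, a box C/D core protein (-1.24 ± 0.10), BYSL (-1.24 ± 0.10) and IMP4 (-1.08 ± 0.10). In KO recovery 17 rose and 13 fell (median -0.05): IMP3 (1.03 ± 0.11), FBL, the methyltransferase of the box C/D complexes (0.80 ± 0.11), and NOP56 (0.62 ± 0.10) rose and ESF1 fell (-0.72 ± 0.10). At heat shock 24 of the 48 were higher in KO and 5 lower (median 0.25), and at recovery 41 were higher and 2 lower (median 0.87), where 31.8% and 31.3% of all genes were. Of 25 factors that recruit the small subunit to messenger RNA or recycle it, 8 rose and 7 fell in KO recovery (32% and 28%, median -0.07), near the shares of all genes, with EIF3K (0.58 ± 0.10) and EIF3G (0.56 ± 0.10) higher and the recycling factor ABCE1 lower (-0.84 ± 0.11). Of 14 genes that link ribosome stress to p53, 6 rose and 4 fell in KO recovery (42.9% and 28.6%, median 0.14): the stress cytokine GDF15 rose (1.24 ± 0.10), and MDM2, the ligase that degrades p53, fell (-0.69 ± 0.10). Heat shock chaperones fell in WT recovery in 17 of 20 cases, and 0 rose by edgeR's test. In KO recovery 12 rose and 0 fell. Without unheated cells, neither can check the heating itself. HSPA1B, an inducible HSP70, changed by -2.81 ± 0.12 in WT and 1.31 ± 0.11 in KO.

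Genes on the other strand overlap several members, and the strand setting of the counting was not given in the sources used here. In GENCODE 29 on GRCh38, RPS28 (chr19:8321158-8323340, plus strand) overlaps NDUFA7 and KANK3, RPS27L (chr15:63125872-63158021, minus strand) overlaps LACTB, RPS3A (chr4:151099573-151104652, plus strand) overlaps SH3D19, and RPS29 overlaps LRR1. RPS27 (chr1:153990755-153992155, plus strand), RPS21 and RPSA have no such neighbour on the other strand. Small RNA genes overlap some members too: RN7SL1 and RF00019 overlap RPS29, SNORD73A and SNORD73B overlap RPS3A, and SNORA6 and SNORA62 overlap RPSA. RPS10 shares its strand and exons with the read-through gene RPS10-NUDT3. Values of overlapped members may hold reads of the neighbour, which was not tested.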

How the data were processed

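RNA-seq read counts of 8 HCT116 libraries (WT and FBXW7 KO, heat shock and recovery, 2 each) were used. The authors deposited tables of whole-number counts per Ensembl gene for each line and replicate. Per the file headers they hold the counts of a pair of libraries and a log2 fold change, which equals the plain log2 ratio of those columns. The first column was read as recovery because recovery comes first in the name of each comparison. If that were wrong, every recovery change would change sign. CASAVA, TopHat and hg19 are named, per the submitters' processing notes. The counting program, its strand setting and its handling of reads with several matches were not given in the sources used here. Genes given as NA were set to 0.

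edgeR 4.0.16 (R 4.3.3) was run with its quasi-likelihood F test on 17471 genes kept by filterByExpr, with TMM scaling and all 8 libraries. Recovery was compared within replicate pairs (2 residual degrees of freedom), as the series' design describes, and KO against WT by group (4). P-values were Benjamini-Hochberg adjusted over all genes tested, and a gene passed under 0.05. Each ± is a standard error of the log2 difference, from the F statistic. It draws on the spread of all genes, so it can be smaller than a gene's own replicates would give. In WT recovery RPS3A changed by 0.69 and 0.04 in its pairs, with a ± of 0.12. CPM use TMM-scaled library totals, and shares of reads use unscaled totals. Coding length is that of the principal transcript in GENCODE 29, since annotated transcripts of several members reach far beyond it. The scripts were tested on simulated data. Precision is limited by 2 libraries per group, and counting intervals would cover counting error only, since there are no molecular identifiers.

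Some members are counted in the totals but not reported here by name. Full statistics were given for up to 6 at each end of a comparison and for RPSA, FAU, RPS27, RPS27L, RPS27A and RPS6, and from other lists for up to 3 with the lowest p in each line's recovery. The members and lists were chosen with earlier results of these data known. Alternatives were DESeq2 1.42.0, other scalings and filters, offsets for length and GC content (mgcv 1.9.3), pseudogene counts added to the parent gene, the replicate block switched, and leaving out each library.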

Additional observations from a re-analysis of the deposited data

Results flagged for a closer look

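The recovery response differed between the lines by the interaction test of edgeR's quasi-likelihood fit. It was higher in KO for 29 members and lower for 2. These counts rest on the same KO heat shock libraries as the other comparisons that include them, and are not a separate result. On the log2 scale the differences were 4.53 for RPS28, 4.28 for RPS27, 2.86 for RPS3A, 2.71 for RPS21, 2.35 for RPS10 and 2.01 for RPS18. At the other end of those that passed were RPS4X with 0.50, RPS25 with 0.47, RPS27L with -0.38 and RPSA with -0.42. With library totals RPS4X was at 0.24 and did not pass (adjusted p = 0.124). The calls of RPS25, RPS27L and RPSA were lost in other settings, as given above.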

How the results depend on the processing

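Members lower in KO heat shock stayed at 27 to 30 and members higher in KO recovery at 26 to 28 when 1 library was left out, and no other setting moved either by over 1.5 times. Members with the higher response in KO stayed at 25 to 30 in every setting run. The other counts moved with the settings named here, and the cause was not tested. In WT recovery 5 rose, with 2 in DESeq2, 8 with upper-quartile scaling, 8 with library totals, 8 with pseudogene counts added, 9 with length and GC offsets, and 13 with coding length and GC offsets (added after seeing the data), where 5 fell instead of 9. Leaving out 1 library gave 1 to 7 rises and 8 to 11 falls. The WT median of -0.07 became 0.02 with upper-quartile scaling, 0.07 with library totals and with length and GC offsets, 0.11 with coding length, and lay between -0.18 and 0.03 without 1 library. In KO recovery the single fall became 2 with coding length offsets and 0 with pseudogene counts added, and was 0 to 1 without 1 library. Of the difference of the responses, 2 lower became 0 in DESeq2 and with no filter, 1 with pseudogene counts added and with no replicate block, 4 with coding length offsets, and 0 to 2 without 1 library, with 26 to 30 higher. At heat shock, 2 higher in KO became 1 with upper-quartile scaling and with pseudogene counts added, 4 with either length correction, and 1 to 2 without 1 library. At recovery, 10 higher became 6 with upper-quartile scaling, 4 with library totals, 20 with no filter, 5 and 4 with the length corrections, and 4 to 15 without 1 library. The 1 lower became 0 in DESeq2, 5 with upper-quartile scaling, 7 with library totals, 2 with a mean count of at least 50, 8 and 11 with the length corrections, 3 with pseudogene counts added, and 0 to 1 without 1 library. The median of 0.13 became -0.04 with upper-quartile scaling, -0.06 with library totals, and -0.12 and -0.11 with the length corrections.

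Directions of single members turned mainly with the length corrections (transcript length, then coding length). In KO recovery FAU became -0.08 and -0.05, RPS7 -0.17 and -0.02, RPS19 -0.07 with coding length, RPS9 -0.04 and RPS27L 0.21 with transcript length. In the difference of the responses RPS7 became -0.55 and -0.43, RPS25 -0.15 and -0.16, FAU -0.01 and RPS9 -0.06 with transcript length and RPS19 -0.48 with coding length. At heat shock FAU became 0.26 and 0.22, RPS7 0.24 with transcript length and RPS19 0.22 with coding length, and at recovery RPS28 became -0.02 with coding length. Also at recovery RPS18 became -0.06 and -0.11, RPS7 -0.32 and -0.33, and RPS9 -0.20 in both, while RPS12 became -0.23, RPS16 -0.20 and RPS19 -0.26 with coding length. In WT recovery RPS9 became 0.02 in both, RPS16 0.22 and 0.27, and RPS12 0.24 with coding length. RPS10 became -0.32 there without the first library of either WT group. With pseudogene counts added RPSA became 0.73 in KO recovery, 1.13 in the difference of the responses and -0.88 at heat shock, RPS26 -0.60 in WT recovery and RPS7 -0.44 at recovery.

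Same-numbered heat shock and recovery libraries did not deviate together (r = -0.0156 in WT and -0.0138 in KO). With no replicate block, 31 members rose and 1 fell in KO recovery, 4 rose and 10 fell in WT recovery, and 30 were higher and 1 lower in the difference of the responses. With a replicate block, KO against WT gave 2 higher and 29 lower at heat shock and 10 higher and 1 lower at recovery, as without it.

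Scaling also moved the split of all called genes. The share that was higher went from 48.8% to 59% with upper-quartile scaling and 63.3% with library totals in WT recovery, from 49.4% to 33.1% with library totals in KO recovery, from 50.6% to 35.5% with library totals in the difference of the responses, and from 50.4% to 38.1% and 36.8% in KO against WT at recovery. Library totals moved the median of all genes to 0.15, -0.14, -0.29 and -0.20 in these 4 comparisons.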
